A study of Solanum lycopersicum with 36 samples.

Results

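The microRNAs miR159 and miR319 of tomato leaf were followed as mature sequences, on both strands of their precursors, and as cleavage sites on MYB, TCP and other transcripts. Every small RNA sequence whose name holds miR159 or miR319 was taken, each distinct sequence counted as 1, which gave 12 of the 765 sequences in the small RNA table (5 of miR159 and 7 of miR319). Every cleavage site assigned to any of these 12 was taken from the degradome tables, which gave 31 of 576 sites, each on its own transcript. Of the 12 sequences, 10 reached 10 normalized reads in at least 3 libraries and were tested, and of the 31 sites 10 reached 10 reads in at least 1 library and were tested.

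All plants were wild type Solanum lycopersicum seedlings and the tissue was leaf. Control seedlings were irrigated and kept at 26 °C by day, and drought seedlings were kept at 26 °C without irrigation from an age of 24 days. Heat seedlings were irrigated and moved to a day temperature of 38 °C, and seedlings at the combination had no irrigation and 38 °C, the temperature step starting 3 days after irrigation was split and lasting 48 h by the labels. By the methods the sequenced leaves were taken before the end of these 48 h, so the libraries are not taken here as samples of that time. Each of the 4 treatments had 3 small RNA libraries and 3 degradome libraries, and whole leaf was used, so that fewer cells of a type and less RNA per cell cannot be told apart.

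In plants a microRNA precursor folds into a hairpin, and cutting releases a short duplex with a 5p strand and a 3p strand. One strand, the guide, is loaded into an ARGONAUTE protein and directs cleavage of complementary transcripts, and the other, the passenger, is usually degraded. miR159 and miR319 are related families whose guides come from the 3p arm. miR159 is known for cutting transcripts of GAMYB factors, MYB proteins of the gibberellin response. miR319 is known for cutting transcripts of class II TCP factors, which slow cell division in the growing leaf and set leaf shape in tomato. A degradome library counts the 5' ends of uncapped RNA fragments, and a site is a position where such ends match the expected cut of a microRNA.

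The sequences are printed because their seeds and pairing tell which of the named strands can be partners of the guides. They are given 5′ to 3′ with T for U, as in the table, with bases 2 to 8 (the seed) in capitals. The first group shares the seed of sly-miR159, and the last of its members, named in the table as a variant of soybean miR156aa, is not counted among the 12 but was assigned to the same sites.
sly-miR159: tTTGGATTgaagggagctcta
sly-miR159_ahy: tTTGGATTgaagggagctctacca
gma-miR156aa_R+3_1ss7GT: aTTGGATTgaagggagctcca

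sly-miR159a_cpa contains all 21 bases of sly-miR159 but starts 2 bases earlier, so its seed window is shifted.
sly-miR159a_cpa: gGTTTGGAttgaagggagctcta

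The 3 miR319 guides share another seed, and the first 2 of them differ at 1 of 21 bases.
sly-miR319a_1: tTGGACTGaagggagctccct
sly-miR319a_2: tTGGACTGaagggagctcctt
sly-miR319-3p_stu: tTGGACTGaagggtttccttc

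The 5p-named sequences follow, the first 2 of which share a seed.
sly-miR159-p5: aGCTGCTGacctatggattcc
sly-miR319-p5_stu: tGCTGCTGaatcattggttc
sly-miR159a-5p_gma: gAGCTCCTtgaagtccaacag
sly-miR319c-5p: aGAGCTTCcttcagcccactc
sly-miR319b-p5: aTCTCCCGactcattcattca

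The remaining sequence, sly-miR319d-p3_atr, was matched to a precursor of Amborella. It consists of A for 16 of its 21 bases.
sly-miR319d-p3_atr: aAAAATGAaaaatgcaaaaaa

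The suffixes name the species whose known microRNA or precursor was matched: ahy for peanut, cpa for papaya, stu for potato and gma for soybean. The guides of the 2 families were close: with sly-miR319a_1 shifted by 1 base, 17 of 20 aligned bases were identical to sly-miR159. Without gaps, sly-miR159a-5p_gma paired with sly-miR159 at 16 of 19 opposed bases, 2 of them G:U, and left 2 unpaired bases at each 3′ end, the form in which a duplex leaves the precursor. sly-miR319c-5p paired with sly-miR319a_1 in the same form, also at 16 of 19 bases. By contrast sly-miR159-p5 paired with sly-miR159 at 10 of 18 bases at best and sly-miR319b-p5 with sly-miR319a_1 at 10 of 17. sly-miR159-p5 therefore carries a 5p name in the table but does not pair with the guide as a duplex partner would, and it was identical to sly-miR319-p5_stu at 14 of 20 bases.

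The guide sly-miR159 was abundant and stayed within a narrow range over the 4 treatments. It averaged 8.97% of the normalized reads of all 765 sequences. Its normalized reads were 94426, 98419 and 79275 in the control libraries, 105229, 73772 and 85264 at drought, 100223, 98565 and 107485 at heat, and 133963, 98124 and 109453 at the combination. The libraries at 38 °C and 26 °C overlapped, and the difference between them did not pass the test (log2 fold change 0.27 on the scale of log2 of normalized reads + 1, 95% confidence interval -0.00902 to 0.558, limma, adjusted p = 0.181). Each heat library lay above each control library by a small margin (lowest 98565 against highest 98419). None of the 9 comparisons of this guide passed, heat against control included (log2 fold change 0.18, limma, adjusted p = 0.579).

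The longer forms of the guide were minor. sly-miR159_ahy, 24 nt, lay between 95.8 and 214.8 normalized reads in the 12 libraries, with means of 121 ± 5.88 in the control libraries, 118 ± 26.2 in those of drought, 152 ± 16 in those of heat and 170 ± 51.4 in those of the combination (SD, n = 3). sly-miR159a_cpa, 23 nt, lay between 6.96 and 36.5. For sly-miR159_ahy each heat library lay above each control library. Neither sequence passed the test in any comparison, and both hold the whole guide, so that their reads cannot be told apart from extended guides.

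The 5p-named sequences of miR159 fell strongly at 38 °C, while the guide did not. sly-miR159-p5 had 5144, 3803 and 3638 normalized reads in the control libraries, 2753, 2918 and 3004 at drought, 301, 359 and 317 at heat, and 689, 682 and 472 at the combination. Every library at 38 °C was below every library at 26 °C, and each of the 3 combination libraries was above each heat library. As compared with control, it was 12.7-fold lower at heat (log2 fold change -3.67 ± 0.202 SE, limma, adjusted p = 3.05e-08) and 6.84-fold lower at the combination (-2.77 ± 0.202, adjusted p = 3.29e-06). As compared with drought, it was 8.87-fold lower at heat and 4.77-fold lower at the combination (adjusted p = 1.86e-07 and 1.78e-05, limma).

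sly-miR159a-5p_gma, the sequence that pairs with the guide as a duplex partner, had 460, 417 and 376 normalized reads at control, 291, 343 and 360 at drought, 15.5, 42.4 and 12.4 at heat, and 58.2, 58.8 and 48.7 at the combination. The groups at 26 °C and 38 °C again did not overlap, and the 3 heat libraries were the lowest of all. It was 19.6-fold lower at heat than at control (log2 fold change -4.30 ± 0.372 SE, limma, adjusted p = 2.44e-06) and 7.44-fold lower at the combination (-2.90 ± 0.372, adjusted p = 0.00018). Across both water regimes, the decrease at 38 °C against 26 °C was 10.8-fold for sly-miR159a-5p_gma (adjusted p = 6.74e-07) and 7.79-fold for sly-miR159-p5 (adjusted p = 1.18e-08, limma). Among 419 tested sequences these were the 11th and the 15th lowest log2 fold changes in this comparison.

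**Figure D1:**
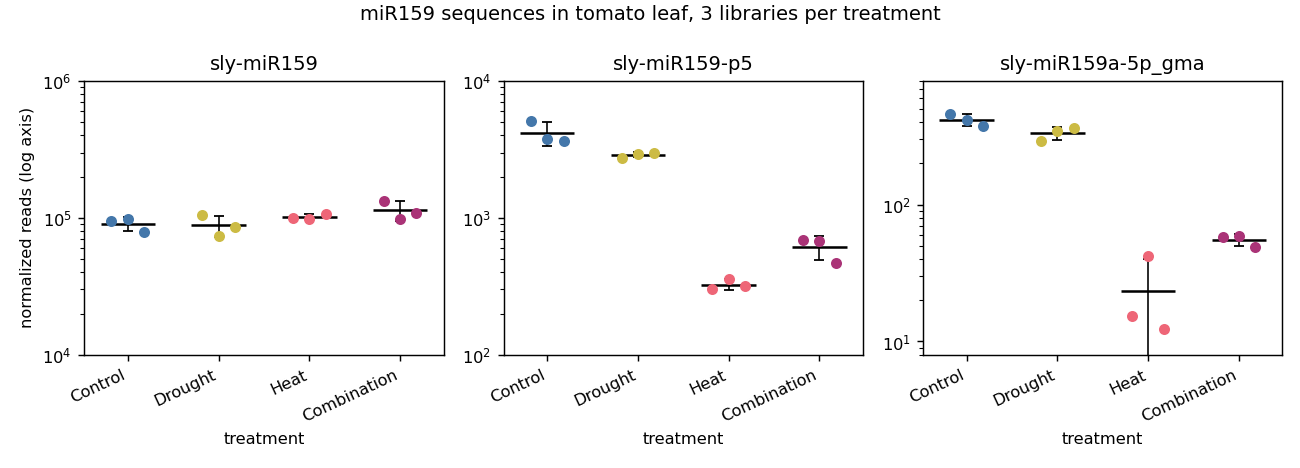
Normalized reads (log axis) of sly-miR159, sly-miR159-p5 and sly-miR159a-5p_gma in each of the 12 libraries by treatment, with the mean (line) and SD (bar, cut at the axis where it runs below it). The guide sits between 73772 and 133963 in all libraries, while both 5p-named sequences drop at heat and at the combination, sly-miR159-p5 from means of 4195 and 2891 to 326 and 614.

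Thus 2 of the 10 tested members were lower at 38 °C than at 26 °C and none was higher, while 12.9% of the 419 tested sequences were lower and 6.44% higher. At heat against control the same counts were 2 lower and 0 higher, beside 12.6% lower among all tested. For the combination against control they were 2 lower and 0 higher, beside 9.31% lower among all tested. Against drought, 2 members were lower at heat (11.2% of all tested lower) and 2 at the combination (7.4% of all tested lower). The 2 members were sly-miR159-p5 and sly-miR159a-5p_gma in each of these comparisons. Among the 10 are sly-miR319a_1 and sly-miR319a_2, which held the same values in all 12 libraries and are not separate measurements. The comparisons with control share the control libraries and those with drought the drought libraries, so they are not independent of each other.

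Drought alone called no member. In limma, 0 of 419 sequences passed at drought against control, where 34 of all tested and 1 of the members had an unadjusted p under 0.05. sly-miR159-p5 had a mean of 2891 ± 128 at drought and 4195 ± 826 at control (SD, n = 3) and the libraries did not overlap, but the difference did not pass (log2 fold change -0.52, 95% confidence interval -0.959 to -0.0811, limma, adjusted p = 0.478). Against heat, the combination had 2 of the 10 members higher, where 6.21% of all tested sequences were higher. sly-miR159-p5 was higher by 0.90 (SE 0.202, limma, adjusted p = 0.0178) and sly-miR159a-5p_gma by 1.4 on the log2 scale (SE 0.372, adjusted p = 0.0438). Neither call held with every library left out. That of sly-miR159-p5 was lost without heat 1, combination 1 or combination 2 (adjusted p 0.0624 to 0.0773), and that of sly-miR159a-5p_gma was lost when any library other than heat 2 was left out (adjusted p 0.0566 to 0.163).

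The decrease of sly-miR159-p5 at 38 °C was smaller in seedlings without irrigation than in irrigated ones. The difference of the 2 decreases was 1.42 on the log2 scale (SE 0.286, limma interaction term, adjusted p = 0.00923), and it passed with each of the 12 libraries left out in turn (highest adjusted p 0.0301). It was the 1 member called among 10, beside 5.01% of all tested sequences. In the contrast of water withheld against irrigated no member passed in limma (0 of 10 with an unadjusted p under 0.05), beside 1.19% of all tested. For sly-miR159a-5p_gma the interaction term was 1.73 and did not pass (adjusted p = 0.0808).

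A ratio of 2 sequences within each library does not depend on how the library was scaled. sly-miR159-p5 does not pair with the guide as a partner, so its ratio is not one of passenger to guide. sly-miR159-p5 made up 5.17, 3.72 and 4.39% of its sum with the guide at control and 2.55, 3.81 and 3.40% at drought. It made up 0.299, 0.363 and 0.294% at heat and 0.512, 0.690 and 0.429% at the combination. The log2 ratio of the 2 sequences, each with 1 normalized read added, averaged -7.92 ± 0.478 at 38 °C and -4.68 ± 0.358 at 26 °C (SD, n = 6), and the groups did not overlap (difference -3.24, two-sided exact permutation test, p = 0.00216, the smallest that 6 against 6 libraries allow, and 0.0433 adjusted over the 40 strand comparisons computed). The ratio of sly-miR159a-5p_gma to the guide averaged -11.6 ± 0.93 at 38 °C and -7.90 ± 0.303 at 26 °C (SD, n = 6, difference -3.70, exact permutation p = 0.00216, adjusted 0.0433). With any of the 12 libraries left out neither ratio passed after adjustment (adjusted p = 0.0866, exact permutation test), while the direction was kept. In each of these runs the unadjusted p was the smallest possible with a library fewer. The loss therefore came with the number of libraries and does not show that a ratio hung on any of them. Between treatments, 3 against 3 libraries cannot reach an exact p below 0.1. Heat against control and the combination against control gave that smallest p for both ratios, without overlap.

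For miR319 the ratio of sly-miR319c-5p to sly-miR319a_1 overlapped between the temperatures. sly-miR319c-5p made up 8.53, 5.50 and 6.46% of the sum of both at control, 4.49, 5.42 and 6.11% at drought, 3.63, 4.02 and 4.81% at heat, and 6.81, 5.98 and 3.74% at the combination. At heat against control the log2 ratio was lower by a difference of -0.731, without overlap and at the smallest p of 0.1 that 3 against 3 libraries allow. Over both water regimes it averaged -4.32 ± 0.389 at 38 °C and -3.96 ± 0.329 at 26 °C with overlapping groups (SD, n = 6, difference -0.355, two-sided exact permutation test, p = 0.119, adjusted 0.28). Whether the temperature difference of the ratio was unequal between the 2 families was tested after the values were seen. It was larger for miR159 than for miR319 by -2.88 with sly-miR159-p5 and by -3.35 with sly-miR159a-5p_gma on the log2 scale, in both cases with no overlap of the 6 libraries at each temperature (exact permutation p = 0.00216, also 0.00216 adjusted over the 2 tests). Both tests share sly-miR159 and the miR319 ratio, so they are not independent of each other. As the question was chosen from these same values, the p-values describe the separation and add no support. Only sly-miR159a-5p_gma pairs with its guide in the form in which sly-miR319c-5p does.

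**Figure D2:**
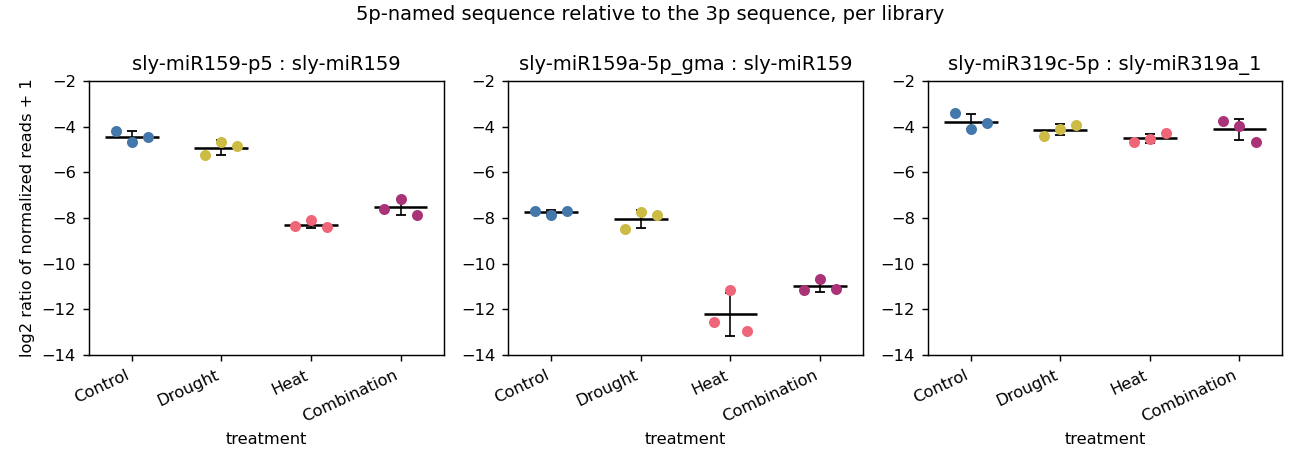
Log2 ratio of each 5p-named sequence to its 3p sequence (normalized reads + 1) per library and treatment, with the mean (line) and SD (bar). Both miR159 ratios lie lower in the 6 libraries at 38 °C than in the 6 at 26 °C (means -7.92 against -4.68, and -11.6 against -7.90), while the miR319 ratio overlaps (means -4.32 and -3.96).

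The guides of miR319 were far less abundant than that of miR159 and varied among libraries of the same treatment. sly-miR319a_1 and sly-miR319a_2 held the same value in all 12 libraries, so their reads cannot be told apart and they give a single measurement. In the 12 libraries the normalized reads were 2743, 1471 and 2546 at control, 3408, 1513 and 1105 at drought, 935, 1631 and 2552 at heat, and 987, 1203 and 1231 at the combination. The control and combination libraries did not overlap, but no comparison passed the test. At the combination against control the log2 fold change was -0.94 (95% confidence interval -1.86 to -0.0115, limma, adjusted p = 0.204).

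sly-miR319c-5p had 256, 85.7 and 175.8 normalized reads at control, 160, 86.7 and 71.9 at drought, 35.3, 68.3 and 129 at heat, and 72.1, 76.6 and 47.8 at the combination. Only the combination lay wholly below control, and no comparison passed (at 38 °C against 26 °C the 95% confidence interval of the log2 fold change was -1.70 to -0.131, limma, adjusted p = 0.105). It followed sly-miR319a_1 over the 12 libraries (Pearson r = 0.879, a description over libraries that share their depth and scaling).

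The other miR319 sequences were low. sly-miR319-3p_stu lay between 4.30 and 67.7 normalized reads with wide overlap of all treatments. sly-miR319b-p5 was above 0 in 8 of the 12 libraries with a highest value of 24.7, and sly-miR319-p5_stu was above 0 in 4 with a highest value of 20.9, in control 1. sly-miR319d-p3_atr was at 0 in the 9 libraries of the other treatments and at 13.9, 2.53 and 10.9 at the combination. The last 2 were not tested.

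**Figure D3:**
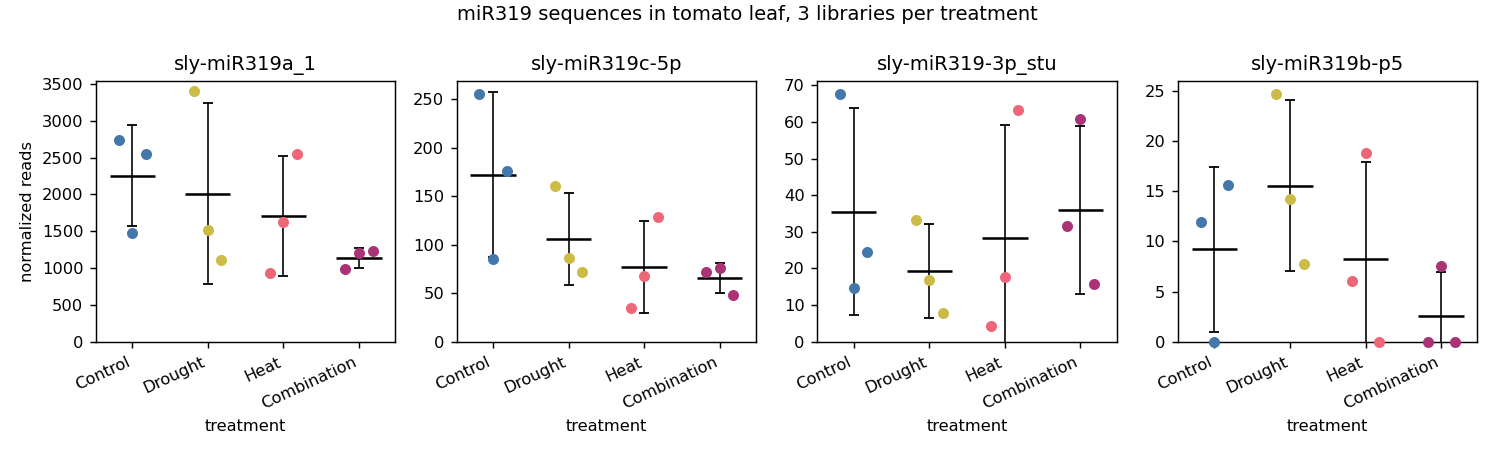
Normalized reads of 4 miR319 sequences in each of the 12 libraries by treatment, with the mean (line) and SD (bar, cut at 0 where it runs below it). sly-miR319a_1 has means of 2253, 2009, 1706 and 1140 at control, drought, heat and the combination. Its treatments overlap, apart from control and the combination. The other 3 sequences lie at or below 256 in all libraries.

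As families, miR159 took 8.27 ± 0.827, 8.72 ± 2.01, 9.22 ± 0.358 and 10.7 ± 1.24% of the normalized reads at control, drought, heat and the combination (SD, n = 3). miR319 took 0.414 ± 0.143, 0.403 ± 0.269, 0.312 ± 0.136 and 0.225 ± 0.0456% in the same order, with the reads shared by sly-miR319a_1 and sly-miR319a_2 counted in both. These shares were not tested.

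The sequences whose pattern was most like sly-miR159-p5 over the 12 libraries, outside the 2 families, were sly-miR168a-3p (Pearson r = 0.991), stu-miR162a-5p (0.981), nta-MIR156g-p3_1ss22AC (0.972), stu-miR6024-5p_R-1_1ss20AG (0.972) and sly-miR168b-3p (0.963). The guides of miR168 and miR156 come from the 5p arm and that of miR162 from the 3p arm, so at least the sequences of these 3 families are from the arm opposite the guide. sly-miR168a-3p averaged 3043 normalized reads at control and 2319 at drought, but 277 at heat and 639 at the combination. For the guide sly-miR159 the likeness was lower, with ath-miR8175_L-2 (r = 0.947), sly-miR156a (0.866), sly-miR156d-5p (0.836), sly-miR9471b-3p (0.829) and sly-miR6022 (0.808). sly-miR159-p5 and sly-miR159a-5p_gma were alike at r = 0.979. These coefficients describe 12 libraries that share depth and scaling, and no test was made of them.

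Other microRNA families of leaf phase, shape and growth act beside miR319 and the TCP factors: miR156 and miR157 on SPL factors, miR164 on NAC factors of the leaf margin, miR165 and miR166 on factors of the upper leaf side, miR160 and miR167 on auxin response factors, and miR396 on growth regulating factors. Of 70 sequences with such names 52 were tested. At 38 °C against 26 °C 3 were higher and 15 lower, beside 6.44% higher and 12.9% lower of the 419 tested sequences, with a median log2 fold change of -0.0516 beside 0.0251 over all tested sequences. At heat against control 1 was higher and 13 lower, beside 2.39% higher and 12.6% lower among all tested. At the combination against control the counts were 0 and 8, beside 3.34% and 9.31%. Drought against control called none of them.

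The called sequences of this list with the largest decreases at heat were sequences of the arm opposite the guide. stu-miR166a-5p_R+1 had the largest (log2 fold change -4.8, limma, adjusted p = 0.0018). Its reads were low, with means of 27.5 ± 8.03 at control, 0 at heat and 6.93 ± 8.52 at the combination (SD, n = 3). sly-miR166c-5p averaged 651 ± 125 normalized reads at control and 672 ± 91.9 at drought. It averaged 69.5 ± 79.9 at heat, but 618 ± 260 at the combination (SD, n = 3, heat against control log2 fold change -3.85, limma, adjusted p = 0.00067). stu-miR160a-3p had the same shape, with means of 374 at control, 26.9 at heat and 309 at the combination. Unlike sly-miR166c-5p and stu-miR160a-3p, nta-MIR156g-p3_1ss22AC stayed low at both, with 782 ± 257 at control, 59.6 ± 15.4 at heat and 81.6 ± 21.8 at the combination. So did stu-miR167c-3p, though its reads were few, with means of 31.4, 2.36 and 1.05 in the same order.

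The degradome tables listed 31 sites for the members, 9 of miR159 and 22 of miR319. The 9 sites of miR159 held 4109 reads in all libraries together and the 22 sites of miR319 held 329. The deposited values were inferred to be scaled to the total of each library, with inferred totals from 18295705 to 28105584 reads. Reads are given here as these values divided by the inferred value of 1 read. Of the 31 sites 14 had reads in 1 library only (45.2%, beside 43.1% of all 576 sites). The same sites were often listed for several members, with the 6 TCP sites listed for each of sly-miR319a_1, sly-miR319a_2 and sly-miR319-3p_stu, and gma-miR156aa_R+3_1ss7GT was assigned to 6 of the 9 sites of sly-miR159. That sequence was above 0 in 1 of 12 small RNA libraries, at 1.58 normalized reads.

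The reads at all listed sites numbered between 5259 and 7498 per library at 26 °C and between 1407 and 3884 at 38 °C, while the library totals overlapped. Site reads were therefore scaled with trimmed means of log ratios between libraries, taken over all 576 sites, and called differences are given below also on the scale of the deposited files, per total library reads. After scaling, the median log2 fold change over the 149 tested sites was -0.476 at 38 °C against 26 °C, and that shift should be read beside each value. On the deposited scale the same median was -0.965. The paper reports that a smaller share of all degradome reads mapped to transcripts at heat and the combination than at control and drought. For unique reads the shares it gives lie much closer together, with the combination above drought. Scaling to all reads of a library, as on the deposited scale, does not adjust for the difference in the share of all reads. Whether that difference bears on the site results was not tested.

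The site with most reads was not on a MYB transcript. Solyc12g014120.2.1, annotated as WAS/WASL-interacting protein family member 1-like, held 3646 reads, 88.7% of the reads at miR159 sites, and ranked 2 of the 576 sites by reads. Its reads were 338, 495 and 347 at control, 442, 246 and 342 at drought, 303, 228 and 376 at heat, and 147, 209 and 173 at the combination. As a share of the reads at all listed sites, it held between 3.40 and 7.51% in libraries at 26 °C and between 8.24 and 12.3% at 38 °C, with no overlap (not tested). The scaled reads were higher at 38 °C against 26 °C by 0.68 on the log2 scale (SE 0.237, limma, adjusted p = 0.0297), but on the deposited scale the direction turned to -0.515 (adjusted p = 0.0835). The call was also lost without any of 10 libraries left out in turn, all but heat 3 and combination 2 (log2 fold change 0.474 to 0.851 over all 12, adjusted p of the lost calls 0.0575 to 0.264). At heat against drought the scaled difference was 1.17 (SE 0.335, adjusted p = 0.021, limma), and -0.0311 on the deposited scale. That call was lost without control 2, any drought library, heat 1, heat 2 or combination 1 (adjusted p 0.0579 to 0.189).

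The 3 MYB transcripts of miR159 carried the symbol GAM1, the GAMYB factor of the gibberellin response, in the tables. The annotation was myb domain protein 30 for Solyc01g090530.2.1 and Solyc01g009070.3.1 and hypothetical protein for Solyc06g073640.3.1, so the name GAM1 rests on the symbol. The site on Solyc01g090530.2.1 had 0, 1 and 6 reads at control, 3, 2 and 0 at drought, 1, 5 and 24 at heat, and 6, 20 and 9 at the combination. The combination libraries were all at or above the highest library at 26 °C, and the heat libraries overlapped with 26 °C. Only libraries at 38 °C reached the 10 reads needed for testing, so the site entered through the group where it was high. Under the alternative filter of at least 10 reads in 3 libraries it was not tested. Scaled reads were higher at 38 °C by 2.86 on the log2 scale (SE 0.697, limma, adjusted p = 0.00247), a call kept on the deposited scale (1.98, adjusted p = 0.028) and with each of the 12 libraries left out (2.5 to 3.2, highest adjusted p 0.0176). At the combination it was higher than at control by 3.36 (SE 0.985, adjusted p = 0.0205) and than at drought by 3.59 (SE 0.985, adjusted p = 0.0152), but neither passed on the deposited scale (2.35 and 2.39, adjusted p = 0.0848 and 0.0715, limma). The first was lost without control 1, control 2 or combination 2 (adjusted p 0.0598 to 0.13) and the second without drought 3 or combination 2 (adjusted p 0.0898 to 0.0976).

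The site on the GAM1 transcript Solyc06g073640.3.1 had 7, 8 and 19 reads at control, 10, 1 and 6 at drought, 4, 12 and 28 at heat, and 16, 7 and 7 at the combination. The reads overlapped between the temperatures. After scaling, the libraries at 26 °C lay between 0.613 and 15.4 and those at 38 °C between 6.58 and 30.4, a difference of 1.70 on the log2 scale (SE 0.593, limma, adjusted p = 0.0297) that did not pass on the deposited scale (0.655, adjusted p = 0.418). It was also lost without control 1, drought 2, heat 2, heat 3 or combination 1 (adjusted p 0.0658 to 0.0934). At the combination against drought the difference was 2.40 (SE 0.839, adjusted p = 0.0498) did not pass on the deposited scale (1.05, adjusted p = 0.356, limma), and was lost when any library other than control 1 and drought 1 was left out (adjusted p 0.0573 to 0.268). The third GAM1 transcript, Solyc01g009070.3.1, had 15, 0 and 5 reads at control, 4, 8 and 4 at drought, 2, 3 and 22 at heat, and 16, 1 and 5 at the combination, with overlap of all treatments, and no comparison passed (38 °C against 26 °C, 95% confidence interval of the log2 fold change -0.252 to 2.80, limma, adjusted p = 0.196, and 0.329 on the deposited scale).

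A further WAS/WASL-interacting transcript, Solyc07g062685.1.1, had 18, 36 and 0 reads at control, 0, 44 and 37 at drought, 0, 0 and 1 at heat, and 0, 1 and 0 at the combination. Reads above 1 were thus in 4 libraries at 26 °C and in none at 38 °C, but the zeros of control 3 and drought 1 overlap with 38 °C. As only libraries at 26 °C reached the reads needed for testing, this site also entered through the temperature where it was high. Its calls are thus not independent of the filter on either scale. Scaled reads fell at 38 °C by 2.65 on the log2 scale (SE 0.87, limma, adjusted p = 0.024) and by 2.98 on the deposited scale (adjusted p = 0.00706). The call was lost without control 1, heat 2 or combination 2 (adjusted p 0.050 to 0.0561). The 2 transcripts with this annotation thus went in opposite directions at 38 °C after scaling, and in 1 direction on the deposited scale.

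The site on ACA13, Solyc09g082890.2.1, annotated as a plasma membrane proton pump, had 4 reads in control 1 and 30 in combination 1 and no other read. The 3 remaining miR159 sites, on Solyc07g052640.3.1, Solyc07g062750.3.1 and Solyc11g017240.2.1, had at most 2 reads in all, each in a single library.

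**Figure D4:**
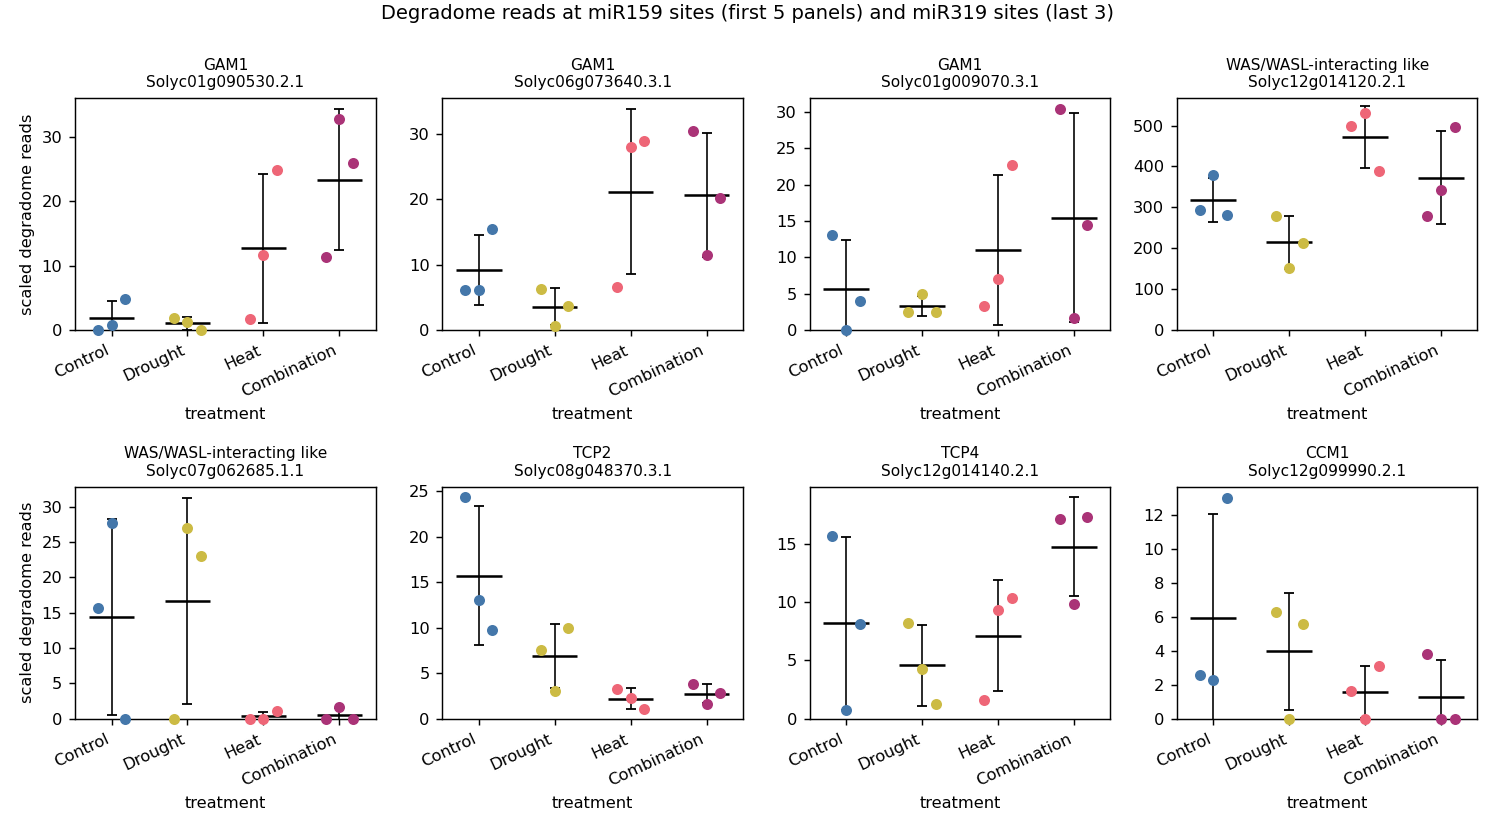
Scaled degradome reads at 5 miR159 sites and 3 miR319 sites in each of the 12 libraries by treatment, with the mean (line) and SD (bar, cut at 0 where it runs below it). The GAM1 site of Solyc01g090530.2.1 averages 12.7 at heat and 23.4 at the combination against 1.88 at control, while the TCP2 site averages 15.7 and 6.87 at control and drought against 2.22 and 2.77 at heat and the combination.

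The TCP transcripts were listed for the 3 guides sly-miR319a_1, sly-miR319a_2 and sly-miR319-3p_stu. The site on TCP2, Solyc08g048370.3.1, had 28, 17 and 12 reads at control, 12, 5 and 16 at drought, 2, 1 and 1 at heat, and 2, 1 and 1 at the combination. Every library at 38 °C had fewer reads than every library at 26 °C, which after scaling left a small overlap (3.06 to 24.3 at 26 °C and 1.03 to 3.79 at 38 °C). Only libraries at 26 °C reached the reads needed for testing, so the site entered through the temperature where it was high. Its calls at 38 °C against 26 °C are thus not independent of the filter on either scale. Scaled reads fell at 38 °C by 1.67 on the log2 scale (SE 0.601, limma, adjusted p = 0.035) and by 2.55 on the deposited scale (adjusted p = 0.0014). The scaled call was lost without control 1, control 2, drought 2, drought 3, heat 2, heat 3, combination 1 or combination 2 (adjusted p 0.0571 to 0.109). At heat against control the scaled difference was -2.35 and did not pass (adjusted p = 0.0511, limma), whereas on the deposited scale it was -2.93 and passed (adjusted p = 0.0132).

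The site on the TCP4 transcript Solyc12g014140.2.1 had 18, 1 and 10 reads at control, 13, 7 and 2 at drought, 1, 4 and 10 at heat, and 9, 6 and 6 at the combination. All treatments overlapped and no comparison passed (38 °C against 26 °C, 95% confidence interval of the scaled log2 fold change -0.497 to 2.24, limma, adjusted p = 0.341, and a log2 fold change of -0.132 on the deposited scale). Of the other 4 transcripts named TCP4, Solyc07g053410.3.1 had 8 reads in all, with 6 of them at drought, and Solyc07g062680.2.1 had 5. Solyc02g077250.2.1 and Solyc05g012840.1.1 were listed at the combination only, each with a value below that of 1 read. These 4 were too low to be tested.

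The 16 remaining miR319 sites were on transcripts of other kinds. The site of sly-miR319c-5p on CCM1, Solyc12g099990.2.1, annotated as calmodulin-like, had 3, 3 and 16 reads at control, 10, 0 and 9 at drought, 1, 0 and 3 at heat, and 2, 0 and 0 at the combination, and no comparison passed. It was also assigned to ABCA2 and ATE1, with 2 reads each, and sly-miR319-3p_stu to NHLRC2 with 3. Of the 7 sites of sly-miR319-p5_stu, udkC, annotated as uridine kinase-like, had 16 reads, 15 of them at control, CYP-3 had 12, CKB4 10, PQT3 6, GRP10 3, and Solyc02g076690.3.1 and Solyc05g025500.3.1 had 1 each. sly-miR319d-p3_atr was assigned to 5 sites, of which FBA3, a fructose-bisphosphate aldolase, had 11 reads, all in drought 2, SH3P2 6, APY6 5, CPK17 4 and CCR4-1 1. Reads were listed at its sites at control, drought and heat, where the sequence itself was at 0 in every small RNA library.

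Over the 10 tested sites, 3 were higher and 2 lower at 38 °C against 26 °C after scaling, beside 11.4% higher and 20.1% lower of the 149 tested sites. On the deposited scale 1 was higher and 2 lower, beside 4.7% higher and 38.9% lower of the 149. The sites on Solyc01g090530.2.1, Solyc07g062685.1.1 and TCP2, called on both scales, reached the 10 reads needed only at the temperature where they were higher. Their calls are thus not independent of the filter. The median log2 fold change of the 10 was 0.65 after scaling and -0.323 on the deposited scale, against -0.476 and -0.965 over the 149. The combination had 2 higher than drought (8.05% of all tested) and 1 higher than control (7.38%), and heat had 1 higher than drought (10.1%). On the deposited scale none of these was called higher, while 2 sites were lower at the combination than at control, TCP2 and Solyc12g014120.2.1, and 1 was lower than at drought, Solyc07g062685.1.1. At heat against control 0 of 10 passed in limma, where 3 had an unadjusted p under 0.05, beside 19.5% of the 149 tested sites in either direction. No member site passed at the combination against heat (5.37% of all tested in either direction), in the interaction (2.01%) or in water withheld against irrigated (0 of 149), and 0 members had an unadjusted p under 0.05 in any of these 3 in limma. At drought against control, 0 of 149 sites passed in limma, where 16 of all and 0 of the members had an unadjusted p under 0.05.

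**Figure D5:**
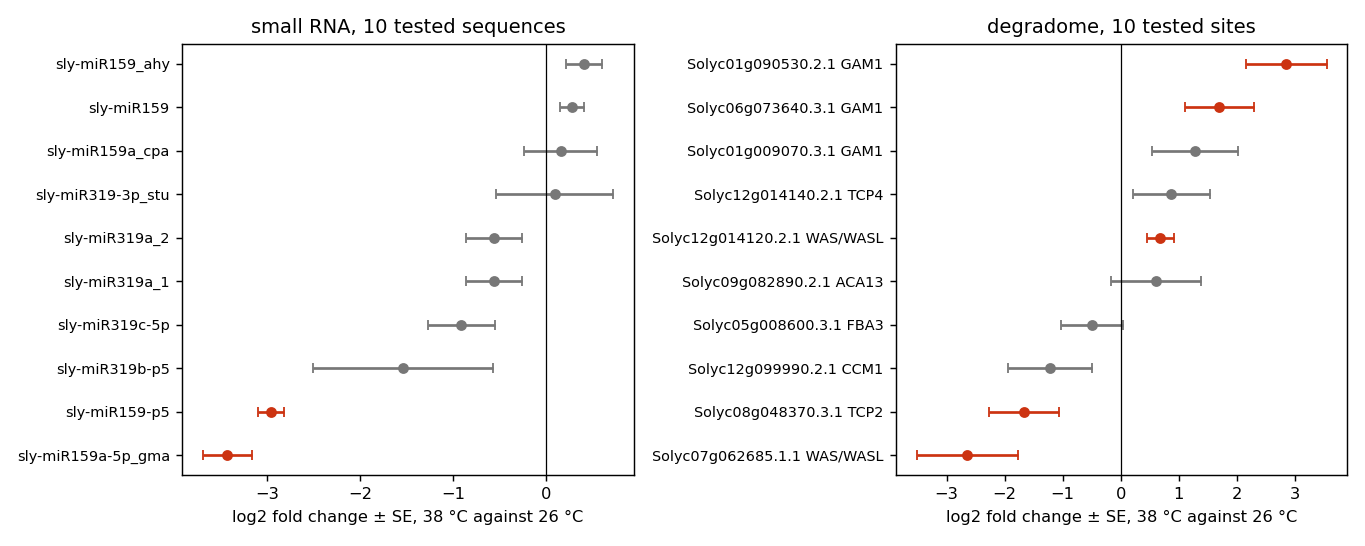
Log2 fold change at 38 °C against 26 °C with its SE for the 10 tested sequences (left) and the 10 tested sites after scaling (right), with red points for an adjusted p under 0.05. The sequences sly-miR159-p5 and sly-miR159a-5p_gma lie at -2.96 and -3.43 apart from the others, and the sites spread from -2.65 to 2.86 with wide errors. The points of sly-miR319a_1 and sly-miR319a_2 are a single measurement.

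Transcripts named or annotated MYB, GAM1 or TCP in the degradome tables carried 13 sites, of which 9 belonged to miR159 or miR319. The other 4 were low: 3 reads on MYB4 (Solyc03g005570.3.1), 2 on MYB48 (Solyc06g075660.3.1), 5 on MYB5 (Solyc08g008480.3.1) and 1 on the TCP4 transcript Solyc07g053410.3.1, the last assigned to gma-miR156aa_R+3_1ss7GT. None of them was tested.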

How the data were processed

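Small RNA and degradome libraries were made from leaf RNA of the same 4 treatments. The deposited small RNA values are a signal of normalized reads per sequence made by the authors (the formula is not given in the sources used here), and the deposited degradome values are a signal of reads at each site scaled by the authors to the total reads of the library. That scaling and the value of 1 read were inferred. For each library, the value of 1 read was taken as the step that made the largest share of degradome values whole. With this step 91.6 to 96.9% of the values per library were whole multiples of 1 read, within a relative tolerance of 1e-06. The step was chosen to make this share large, so the share is not a separate check of it. A site that was not listed at a treatment entered as 0. Lines with the same sequence, and pairs with the same transcript and values, entered as 1. Sites on different transcripts entered separately even where their values were the same. Solyc08g067560.2.1, Solyc08g067580.2.1 and Solyc12g017620.1.1 had the same fitted values in every comparison. All were called higher at the combination than at control, drought and heat, so the shares over all tested sites count them separately.

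Tests used limma 3.58.1 in R 4.3.3 on log2 of the value + 1, with 1 mean per treatment, all 12 libraries in the fit, the variance modelled as a trend of the mean, and p-values adjusted by Benjamini-Hochberg over all 419 sequences or 149 sites. Values are called at an adjusted p under 0.05. The scaling factors of site reads were trimmed means of log ratios between libraries (trims 0.3 and 0.05). Ratios of 5p-named to 3p sequences were compared with an exact permutation test, adjusted over the 40 comparisons computed. Other steps ran in Python 3.11.15 (numpy 2.4.6, pandas 2.3.3, matplotlib 3.10.9, scipy 1.17.1). The scripts were tested on simulated data.

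All member sequences and sites were named with values. For sly-miR159 and sly-miR159-p5 the 5 most correlated sequences outside the families were named, and of the leaf growth list up to 4 called sequences of largest change. The members and lists were chosen with earlier results of these data known. Alternatives were other pseudocounts, filters and scalings, fits of 2 groups only or without trend, an unadjusted two-sample test on deposited values, a replicate block and leaving out each library. Circular RNA libraries were not used here. None of the 31 transcript names matched the reference gene table, so positions and site sequences are not given.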

Additional observations from a re-analysis of the deposited data

Results flagged for a closer look

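The effect of 38 °C on sly-miR159-p5 differed between irrigated and not irrigated seedlings by 1.42 on the log2 scale (limma interaction term, adjusted p = 0.00923). It was picked out by this test of the difference between the 2 water regimes: the log2 fold change was -3.67 at heat against control and -2.25 at the combination against drought. All 3 combination libraries (472 to 689 normalized reads) lay above all 3 heat libraries (301 to 359), while all 3 drought libraries lay below all 3 control libraries. Groups of 3 libraries are too small for the test of a single library far from its group.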

How the results depend on the processing

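The decreases of sly-miR159-p5 and sly-miR159a-5p_gma at heat, at the combination and at 38 °C kept their direction and call under every alternative run. Both miR159 strand ratios kept their direction. Their calls, adjusted over 40 comparisons, held with other pseudocounts or as percents. They did not pass with any library left out (-3.39 to -3.14 for sly-miR159-p5 and -3.89 to -3.43 for sly-miR159a-5p_gma, adjusted exact permutation p = 0.0866, with 0.00433 unadjusted the smallest that 5 against 6 libraries allow). With the replicate block they did not pass either (-3.24 and -3.70, sign-flip test, adjusted p = 0.476). That test flipped the signs of only 3 replicate differences, so no values could have passed. It cannot decide whether the calls depend on the block. Of the small RNA members called at the combination against heat, 2 in the report, 0 passed without trend or with only the 2 groups, and 0 to 2 with a library left out. The interaction called 2 with trimmed mean rescaling (1 to 2 with a library left out), and water withheld against irrigated 0 to 1. Calls at degradome sites depended on the processing. At heat against control 1 site passed, in place of 0, on the deposited scale, with a pseudocount of 5, without trend, with only the 2 groups or with at least 10 reads in 3 libraries. For the combination against control 2 passed, in place of 1, on the deposited scale, with a pseudocount of 5 or without trend, and 0 with only the 2 groups or at least 10 reads in 3 libraries. At heat against drought 0 passed, in place of 1, on the deposited scale, without trend or with only the 2 groups, and 2 with at least 10 reads in 3 libraries. For the combination against drought 1 passed, in place of 2, on the deposited scale, with pseudocounts of 0.5 or 5, without filter, with at least 10 reads in 3 libraries, without trend or with the replicate block, and 0 with only the 2 groups. At 38 °C against 26 °C 3 passed, in place of 5, on the deposited scale or without filter. With each library left out in turn these counts were 0 to 2, 0 to 2, 0 to 3, 0 to 3 and 1 to 4 in the same order. The site on Solyc12g014120.2.1 reversed on the deposited scale, at 38 °C against 26 °C to -0.515 and at heat against drought to -0.0311. The strand ratio of sly-miR319c-5p lay between -0.467 and -0.245 with a library left out and did not pass. The cause of these changes was not tested. Deviations of libraries with the same number correlated at -0.379 to 0.381 in small RNA and -0.241 to 0.241 in the degradome. In small RNA, replicate 1 of control, drought and the combination correlated at 0.284 to 0.381, and each of these with heat at -0.379 to -0.215. Such values do not establish a pairing by number and, with 3 libraries per treatment, cannot exclude one. The replicate block changed 1 further call, that of the site on Solyc06g073640.3.1 at the combination against drought (2.40, limma, adjusted p = 0.0571). Most sites hold few reads, with a median of 5 over all 12 libraries, which limits what can be detected.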
